A study of Mus musculus with 4 samples.

Results

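Peroxisome genes were taken as the rows of the deposited table whose pathway column holds the KEGG name Peroxisome, leaving out Nos2, which gave 85 of 21959 genes. Their RNA was sequenced in 4 livers of wild-type (WT) mice that had acute-on-chronic liver failure (ACLF), in which a chronically diseased liver takes an acute insult. The mice of 2 livers were treated with saline and those of the other 2 with baicalein, a plant flavone, and ACLF was common to both groups. The labels state neither how ACLF was induced nor the dose, time, age or sex, and they do not say whether the livers of a group are separate animals. The p-values then measure only spread between these samples, and that spread may be technical.

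Peroxisomes are organelles with a single membrane that take up folded enzymes through a machinery of peroxins, the proteins encoded by the Pex genes. In liver they shorten very-long-chain, branched and dicarboxylic fatty acids and the side chain of bile acid precursors by beta-oxidation, whose first step makes hydrogen peroxide that catalase breaks down. They also begin ether lipid synthesis and hold oxidases of amino and hydroxy acids. In mouse liver many of these genes are driven by PPARA, a nuclear receptor for fatty acids that binds DNA with RXRA.

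The deposited counts summed to between 13976440 and 18731616 per liver. The 85 genes held 2.93% and 3.05% of all counts in the saline livers and 2.08% and 2.09% in the baicalein livers. Markers of hepatocytes were present throughout, with each of the 6 listed genes counted in each liver. Levels are given in CPM (read counts scaled to a common library size, the usual CPM unit). The 6 summed to 78192 and 74118 CPM with saline and 110253 and 93658 CPM with baicalein, higher in both baicalein livers. They did not move together, as 2 rose (Alb and Cps1), 2 fell and 2 did not pass. The 4 markers of kidney tubule, another tissue rich in peroxisomes, summed to at most 0.299 CPM. Of the 5 genes that mark the pathway, Ehhadh, Acaa1b, Cat and Pex11a were counted in each liver, whereas Hao2 had 1 count in saline 1 and 0 in saline 2.

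The livers differed in other ways that run with, or across, the treatment. Skeletal muscle markers, 10 listed genes, summed to 5954 CPM in saline 1 and 1819 CPM in baicalein 2, against 1.46 CPM in saline 2 and 0.894 CPM in baicalein 1. Stellate cell markers (5 genes) summed to 597 and 622 CPM in saline 1 and baicalein 2, against 158 and 224 CPM in saline 2 and baicalein 1. Bile duct markers (4 genes) summed to 105 CPM in baicalein 2 and 8.94 to 20.4 CPM in the other livers. Within these sums 1 marker of each list ran with the treatment. Lrat of stellate cells was higher with baicalein, at 5.11 and 7.15 CPM with saline and 39.1 and 27.5 CPM with baicalein. Sox9 of bile duct was lower, at 13.2 and 10.6 CPM with saline and 4.40 and 6.24 CPM with baicalein. The other markers of both lists were not called. Across all genes 15.5% were called, 968 higher and 1000 lower with baicalein. The 4 Y-linked genes examined summed to 48.2 and 61.0 CPM with saline and 0.138 and 0.0499 CPM with baicalein, so treatment and this Y-linked pattern cannot be told apart in any result here. Kupffer cell markers (6 genes) summed to 321 to 371 CPM with saline and 574 to 666 CPM with baicalein, sinusoidal endothelial markers (4 genes) to 139 to 149 and 209 to 228 CPM, and red cell markers (3 genes) to 604 to 843 and 126 to 140.2 CPM, with no defining marker of these 3 lists at 0 in any liver. Their part in the results was not tested, and in whole liver fewer cells of a type and less RNA per cell cannot be told apart.

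More peroxisome genes were lower than higher with baicalein, 54 of 80 tested (67.5%) having a log2 fold change below 0, where 48.8% of all tested genes did. Their summed level was 30465 and 31083 CPM in the saline livers and 21133 and 19534 CPM in the baicalein livers, 33.9% less, and the groups did not overlap. Of 80 members with enough counts to be tested, 33 fell, 9 rose and 38 did not pass (edgeR quasi-likelihood test, Benjamini-Hochberg adjusted p below 0.05 over 12657 genes). The background was 7.9% of all tested genes lower and 7.65% higher, against 41.2% and 11.2% of the tested members. The median log2 fold change (baicalein over saline) was -0.26 over the tested members and 0.01 over all tested genes. In 66 of the 80 the groups did not overlap, 46 with the baicalein livers lower, where 59.2% of all tested genes did not overlap and 29.5% did so with baicalein lower.

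Most falls were of moderate size. The 33 genes that fell had log2 fold changes from -1.55 to -0.34, with a median of -0.63, and 4 of them (Nudt7, Scp2, Hao1 and Ephx2) fell at least 2-fold, where 1.93% of all genes did. Of the 9 that rose, Hao2, Eci3, Acnat2 and Abcd2 rose at least 2-fold, where 3.01% of all genes did. Hao2 and Eci3 passed the filter on low counts only through the baicalein livers, and among the other 78 tested members 7 rose and 33 fell, and the median was -0.28. The 5 members not tested (Pex5l, Acsl6, Dao, Far2 and Hmgcll1) had at most 11 counts in any liver. With 1 liver left out, fewer members were called lower and fewer higher than with the 4 livers. Fewer genes were then called over all as well, and each such fit leaves 1 liver in a group. Between saline 2 and baicalein 1, the livers with little of the muscle markers, 50 of the 80 members were lower (62.5%, where 49.5% of all genes were), with no test.

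**Figure D1:**
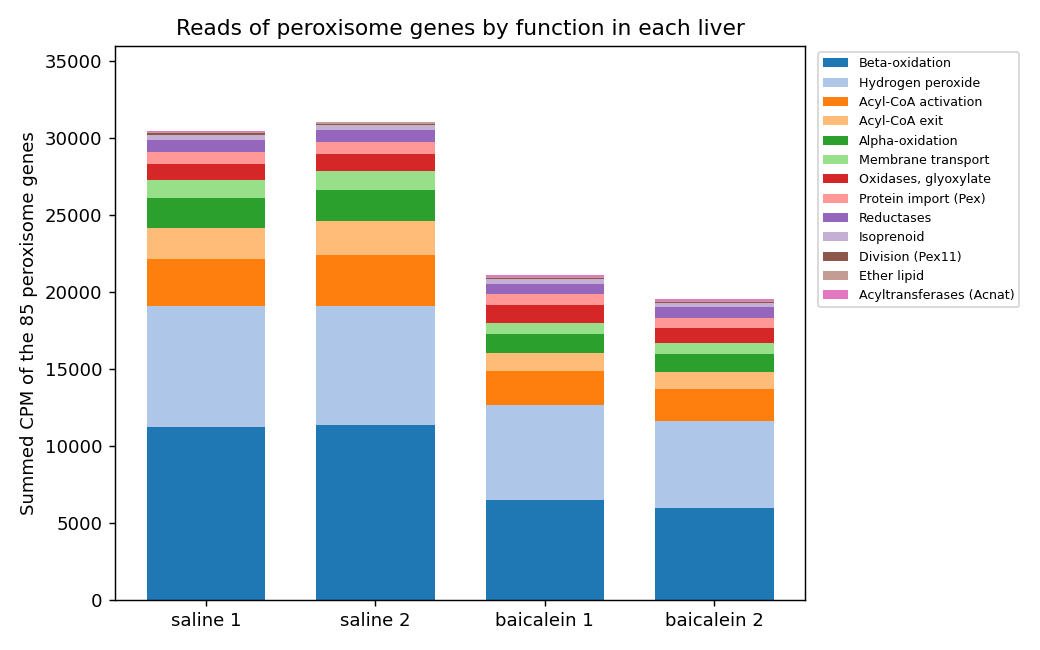
Summed CPM of the 85 peroxisome genes in each liver, stacked by function, with the vertical axis starting at 0. The saline bars reach 30465 and 31083 CPM and the baicalein bars 21133 and 19534 CPM, and the beta-oxidation segment is the tallest in each.

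**Figure D2:**
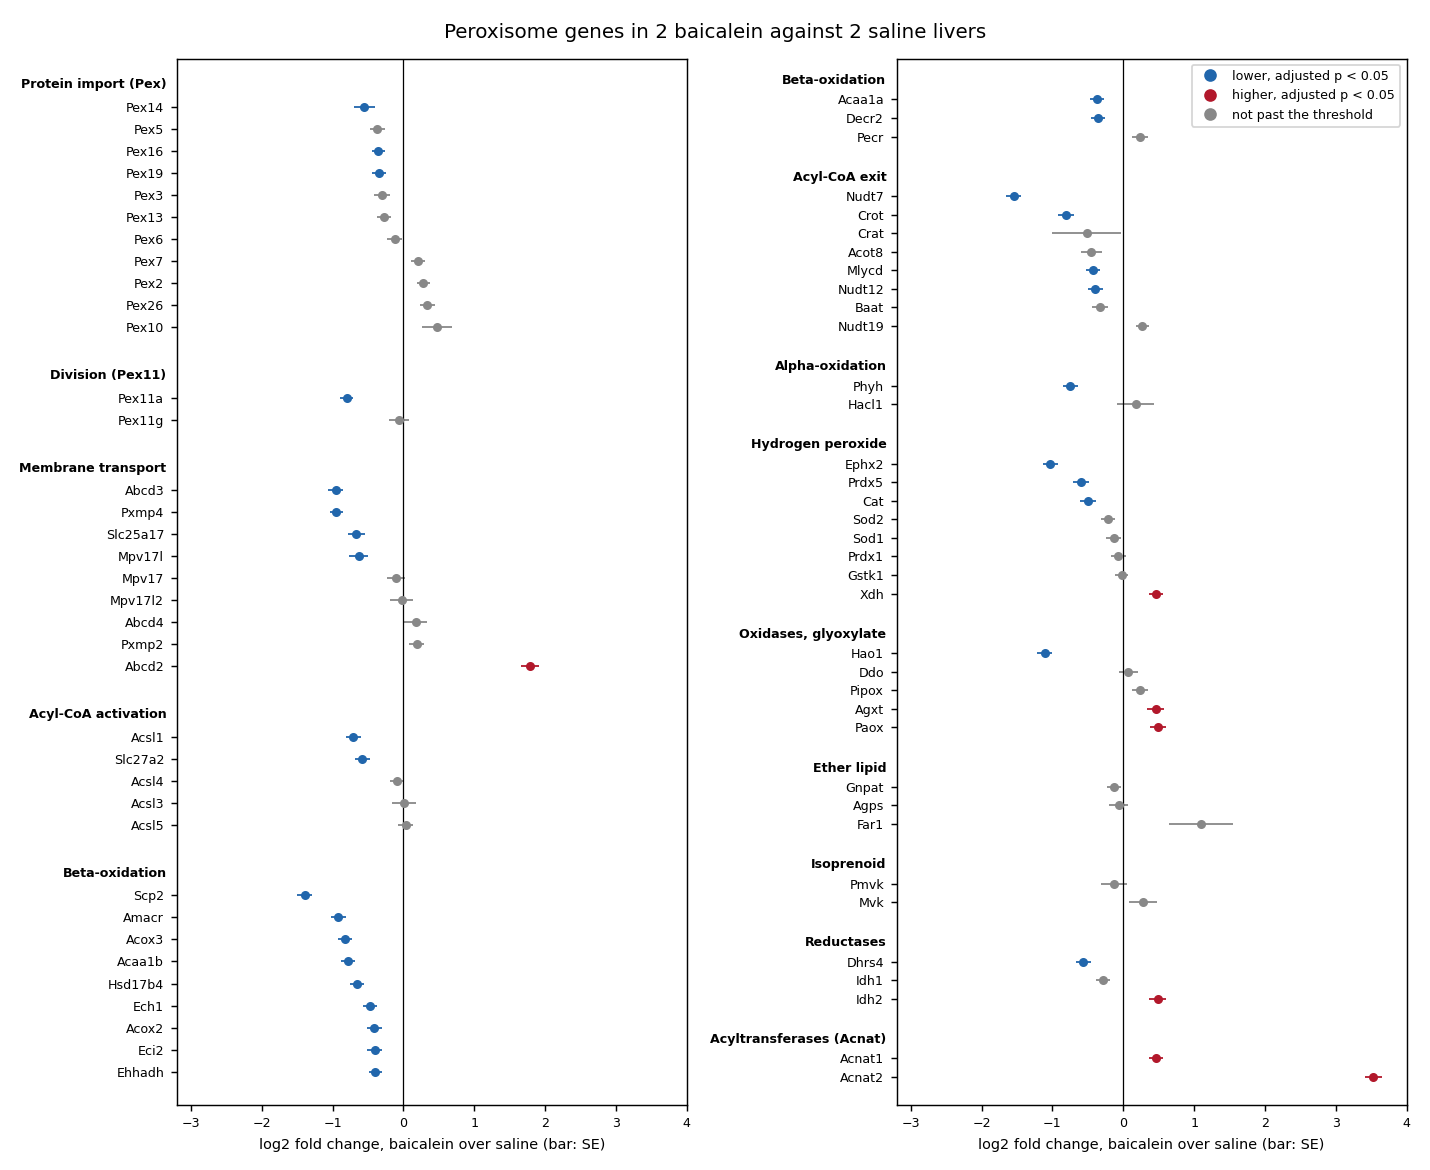
Log2 fold change (baicalein over saline) of 72 tested peroxisome genes by function, with the standard error as a bar and colour for the call. Hao2 and Eci3 are left out because they had 1 and 2 counts in all with saline; the beta-oxidation genes drawn lie left of 0 except Pecr, and Acnat2 and Abcd2 lie farthest right.

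Promoter sequences were examined because many members moved together and PPARA binds direct repeats of AGGTCA spaced by 1 base. RefSeq promoter windows (GRCm38.p6, 250 bases before to 50 after a start site) were found for 65 of the 85 genes. The motif AGGTCANAGGTCA, which is also the kind of site that other nuclear receptors bind, was searched on both strands with at most 2 mismatches. It was found in 2 of 80 windows of these genes (2.5%) and in 3.86% of all 32851 windows. The 2 windows are those of Cat and Acox2, among 25 genes that fell and had a window. That is 8% of these genes, where 3.89% of the tested genes with a window had a match. The share rests on 2 genes, and the difference was not tested. The 250 bases before the start of Cat (chr2:103485154-103485403, minus strand) are shown with the match in capitals, 204 bases before the start. Beside it stands the same stretch of Hao2 (chr3:98893231-98893480, minus strand), the member with the highest ratio between groups, which held no match.
Cat: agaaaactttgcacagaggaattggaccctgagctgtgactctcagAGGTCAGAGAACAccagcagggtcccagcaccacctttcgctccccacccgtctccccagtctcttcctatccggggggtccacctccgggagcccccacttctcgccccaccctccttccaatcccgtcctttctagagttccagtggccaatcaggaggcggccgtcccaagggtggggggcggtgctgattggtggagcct
Hao2: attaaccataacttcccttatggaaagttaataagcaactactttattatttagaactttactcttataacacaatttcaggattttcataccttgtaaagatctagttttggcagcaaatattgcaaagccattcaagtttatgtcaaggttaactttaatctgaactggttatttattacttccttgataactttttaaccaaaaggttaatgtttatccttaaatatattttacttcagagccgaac
Acox2: AGGACAGAGGTGA
The Acox2 line shows only its match (chr14:8258818-8258830, minus strand), which begins 9 bases after the start site. A match describes these letters and is not a binding site, and a window without one says nothing of sites farther away.

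Of the 14 beta-oxidation genes, all of them tested, 12 fell (85.7%, where 7.9% of all tested genes did), Eci3 rose and Pecr did not pass. In each of the 14 the groups did not overlap, as in 59.2% of all tested genes. The summed level of the 14 was 11254 and 11323 CPM with saline and 6471 and 5988 CPM with baicalein, 44.8% less. Scp2 (ENSMUSG00000028603, chromosome 4) encodes the thiolase that cleaves branched and bile acid intermediates and, from a second start, sterol carrier protein. It stood at 4283 and 4371 CPM with saline and 1705 and 1591 CPM with baicalein, both baicalein livers lying far below both saline livers. This was a log2 change of -1.39 with SE 0.11, adjusted p = 7.80e-05, and Scp2 alone made up 25.7% of the summed difference in CPM of all 85 genes. Podn, which overlaps it on the same strand in the table's positions, had 59 to 141 counts per liver.

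Oxidases that open the cycle were among the genes that fell. Acox3, which acts on branched chains, was at 53.4 and 57.4 CPM with saline and 29.7 and 32.6 CPM with baicalein (log2 change of -0.83 with SE 0.10, adjusted p = 8.10e-04). Acox2, the oxidase of bile acid intermediates, was at 256 and 265 CPM with saline and 205 and 188 CPM with baicalein (log2 change of -0.41 with SE 0.10, adjusted p = 0.0262). For both genes the baicalein livers lay below the saline livers. Acox3 kept its call whichever liver was left out, and Acox2 lost it without saline 1, saline 2 or baicalein 2, its adjusted p then reaching 0.249.

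Enzymes of the following steps also fell. Ehhadh and Hsd17b4 encode the 2 bifunctional hydratase and dehydrogenase enzymes. Ehhadh was at 477 and 481 CPM with saline and 374 and 354 CPM with baicalein (log2 change of -0.39 with SE 0.10, adjusted p = 0.0276), and Hsd17b4 at 554 and 536 CPM with saline and 357 and 335 CPM with baicalein (log2 change of -0.66 with SE 0.10, adjusted p = 0.00300). Acaa1b, a thiolase of the last step, was at 638 and 630.4 CPM with saline and 381 and 355 CPM with baicalein (log2 change of -0.78 with SE 0.10, adjusted p = 0.00127). Its close copy Acaa1a was at 165 and 164 CPM with saline and 132 and 122 CPM with baicalein (log2 change of -0.37 with SE 0.10, adjusted p = 0.0335). The groups did not overlap for these 4 genes. Acaa1a and Acaa1b share 583 of their 50-base words, 26.7% of those of Acaa1a and 35.5% of those of Acaa1b in GENCODE M21, and no source used here says how reads common to both were counted, so their separate values are uncertain. Amacr, the racemase that readies branched substrates, was at 225 and 236 CPM with saline and 129 and 115 CPM with baicalein (log2 change of -0.92 with SE 0.10, adjusted p = 6.84e-04). Acaa1b and Amacr kept their calls with any liver left out. Hsd17b4 lost its call when saline 1 or saline 2 was left out (highest adjusted p 0.0646), and Ehhadh and Acaa1a without saline 1, saline 2 or baicalein 2 (up to 0.303 and 0.203).

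Of the enzymes that help with unsaturated chains, Ech1, Eci2 and Decr2 fell, Eci3 rose and Pecr did not pass. Ech1, a dienoyl-CoA isomerase, was at 258 and 239 CPM with saline and 179.6 and 179 CPM with baicalein (log2 change of -0.47 with SE 0.10, adjusted p = 0.0133). Eci2, an enoyl-CoA isomerase, had a log2 fold change of -0.41 (SE 0.11), and Decr2, the dienoyl-CoA reductase, of -0.35 (SE 0.10). The call of Ech1 was lost without saline 1 or saline 2, that of Eci2 without saline 2, baicalein 1 or baicalein 2, and that of Decr2 whichever of the 4 was left out (highest adjusted p 0.132, 0.300 and 0.328). Eci3, a copy of Eci2, shares 122 50-base words with it, 8.7% of those of Eci3, so reads of Eci2 may have been counted for Eci3. Eci3 had 0 and 2 counts with saline and 11 and 30 with baicalein, a ratio of 18.2. The exact 95% counting interval was 4.73 to 155 and does not cover such reads. Eci3 stayed below 2 CPM in each liver. Its call was lost without saline 1, saline 2 or baicalein 1 (highest adjusted p 0.273), and without baicalein 2 it was not tested. Pecr, a trans-2-enoyl-CoA reductase, was at 239 and 252 CPM with saline and 308 and 270.2 CPM with baicalein and did not pass (adjusted p = 0.182).

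Of the 5 tested genes of acyl-CoA activation 2 fell (40%), and of the 2 of alpha-oxidation 1 fell (50%), where 7.9% of all tested genes did. Acsl1, the main long-chain acyl-CoA synthetase of liver, was at 1343 and 1481 CPM with saline and 884 and 842 CPM with baicalein (log2 change of -0.71 with SE 0.11, adjusted p = 0.00281). Slc27a2, a very-long-chain acyl-CoA synthetase, was at 1350.5 and 1459 CPM with saline and 973 and 907 CPM with baicalein (log2 change of -0.58 with SE 0.11, adjusted p = 0.00708). Phyh, the hydroxylase that starts the breakdown of phytanic acid, was at 1949.8 and 2019 CPM with saline and 1227 and 1139 CPM with baicalein (log2 change of -0.75 with SE 0.10, adjusted p = 0.00205). For each of these 3 abundant genes the saline livers lay above the baicalein livers. Acsl1 lost its call without saline 2 (adjusted p = 0.115), and Slc27a2 and Phyh without saline 1 or saline 2 (up to 0.205 and 0.0879). The other tested synthetases did not pass: Acsl5 was at 278 and 271 CPM with saline and 301 and 261 CPM with baicalein, and Acsl3 and Acsl4 had log2 fold changes of 0.00 and -0.09. Hacl1, the lyase after Phyh, was at 4.08 to 5.04 CPM in the 4 livers and did not pass, and nearly its whole span overlaps Gm49387 on the same strand in the table's own positions, which had 0 counts.

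Genes for the exit, hydrolysis and conjugation of acyl-CoA, taken as 1 group, held the deepest fall. Nudt7 (ENSMUSG00000031767, chromosome 8) encodes a diphosphatase that splits coenzyme A and its esters. It was at 842 and 958 CPM with saline and 317 and 298 CPM with baicalein. Both baicalein livers were below 320 CPM and both saline livers above 840 CPM (log2 change of -1.55 with SE 0.11, adjusted p = 5.30e-05). Crot, the carnitine octanoyltransferase that passes shortened chains on to mitochondria, was at 646 and 752 CPM with saline and 379.7 and 417 CPM with baicalein (log2 change of -0.81 with SE 0.12, adjusted p = 0.00219). Mlycd, malonyl-CoA decarboxylase, and Nudt12, a diphosphatase of pyridine nucleotides, fell with log2 fold changes of -0.42 (SE 0.10) and -0.39 (SE 0.11). Of the 8 members tested here 4 fell in edgeR (50%, where 7.9% of all tested genes did). None rose by edgeR, DESeq2 or limma-voom. Of the members above 0 only Nudt19 had an unadjusted p below 0.05 in edgeR, a cut that at least 15.5% of all tested genes passed. Nudt7 kept its call with each liver left out, Crot lost it without saline 2, Mlycd without saline 1, saline 2 or baicalein 2, and Nudt12 whichever liver was left out (highest adjusted p 0.0613, 0.112 and 0.168).

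The other 4 of these genes did not pass in edgeR, while DESeq2 called Baat lower and did not call Nudt12. Baat, which joins bile acids to taurine or glycine, was at 289.9 and 325 CPM with saline and 262 and 229 CPM with baicalein (adjusted p = 0.0910). Nudt19, a second coenzyme A diphosphatase, was at 39.2 and 39.3 CPM with saline and 48.7 and 46.0 CPM with baicalein (adjusted p = 0.0787), so its baicalein livers were the higher ones, unlike those of Nudt7. Acot8, an acyl-CoA thioesterase, had an adjusted p of 0.0844. Crat, carnitine acetyltransferase, was at 49.7 and 27.2 CPM with saline and 21.2 and 32.4 CPM with baicalein and its groups overlapped. Its 2 higher values were in saline 1 and baicalein 2, the livers that also held the muscle markers at 5954 and 1819 CPM, and the part of muscle in its values was not tested.

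Transporters of the peroxisomal membrane split by family member. Abcd3, which carries branched and dicarboxylic acyl-CoA inward, was at 764 and 804 CPM with saline and 393 and 415 CPM with baicalein (log2 change of -0.96 with SE 0.10, adjusted p = 4.56e-04). Abcd2, a related carrier of very-long-chain and polyunsaturated acyl-CoA, was at 11.9 and 10.9 CPM with saline and 42.2 and 36.8 CPM with baicalein (log2 change of 1.79 with SE 0.12, adjusted p = 4.51e-05). The groups were apart for both genes, with saline higher for Abcd3 and baicalein higher for Abcd2. Their levels per length differed widely: by the authors' deposited FPKM the mean in the saline livers was 116 for Abcd3 and 1.86 for Abcd2, and in the baicalein livers 63.0 and 6.80. Abcd4, a homologue that works in cobalamin transport in lysosomes, overlapped between groups.

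Other membrane proteins followed Abcd3 or did not pass. Pxmp4, a peroxisomal membrane protein, was at 160.3 and 163 CPM with saline and 86.4 and 81.0 CPM with baicalein (log2 change of -0.95 with SE 0.10, adjusted p = 3.57e-04). Slc25a17, a carrier of coenzyme A and other cofactors, was at 81.4 and 98.9 CPM with saline and 59.3 and 54.4 CPM with baicalein (log2 change of -0.66 with SE 0.12, adjusted p = 0.00580), and Mpv17l at 44.1 and 40.8 CPM with saline and 31.0 and 23.8 CPM with baicalein (log2 change of -0.63 with SE 0.14, adjusted p = 0.0182). The baicalein livers were the lower ones for each of these 3. Pxmp2, a channel protein, was at 62.6 and 56.7 CPM with saline and 72.4 and 63.7 CPM with baicalein (adjusted p = 0.266), and Mpv17 and Mpv17l2 overlapped between groups. In all, 4 of 10 transport members fell (40%, where 7.9% of all tested genes did). The 1 that rose is 10%, close to the 7.65% of all tested genes. Abcd3, Abcd2 and Pxmp4 kept their calls with each liver left out, Slc25a17 lost it without baicalein 2 (adjusted p = 0.0654) and Mpv17l without saline 1, saline 2 or baicalein 2 (up to 0.138).

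**Figure D3:**
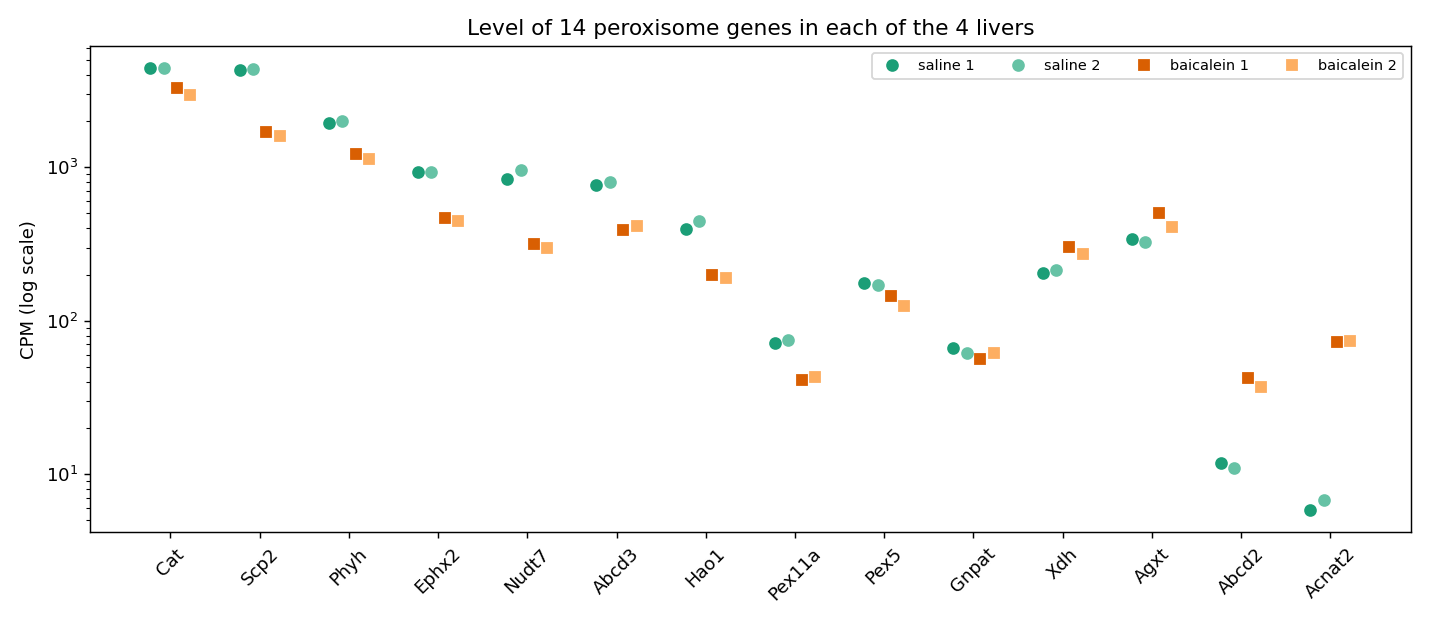
CPM of 14 peroxisome genes in each liver on a log scale, circles for saline and squares for baicalein. For Cat, Scp2, Phyh, Ephx2, Nudt7, Abcd3, Hao1, Pex11a and Pex5 both squares lie below both circles, for Gnpat the 4 livers span 55.9 to 66.4 CPM, and for Xdh, Agxt, Abcd2 and Acnat2 both lie above.

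Of the 13 import genes tested, 4 fell in edgeR (30.8%, where 7.9% of all tested genes did), 3 in DESeq2 and 5 in limma-voom. None rose by these tools. At an unadjusted p below 0.05 in edgeR, 7 were lower and 2 higher. At least 15.5% of all tested genes, those called, lay below that cut in either direction. The summed level of the import genes was 782 and 794 CPM with saline and 724 and 675 CPM with baicalein, 11.3% less. Among the 4 of edgeR were Pex19, a chaperone of membrane proteins (165 and 163 CPM with saline and 132 and 127 CPM with baicalein), Pex16, a membrane receptor for it, and Pex14 of the docking complex. Their log2 fold changes ran from -0.55 for Pex14 to -0.34 for Pex19, and each lost its call whichever liver was left out (highest adjusted p 0.251). Pex5, the receptor for enzymes with a carboxy-terminal signal, was at 175 and 171 CPM with saline and 145 and 124 CPM with baicalein and did not pass (adjusted p = 0.0521), although its groups did not overlap. DESeq2 and limma-voom both called Pex5 lower.

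The other import genes named here did not pass, and they lay on both sides of 0. Pex7, the receptor for the amino-terminal signal, was at 73.1 and 75.6 CPM with saline and 88.9 and 82.8 CPM with baicalein (adjusted p = 0.184). In the ring of ubiquitin ligases that recycles the receptors, Pex2 was at 46.2 and 50.1 CPM with saline and 60.3 and 56.7 CPM with baicalein (adjusted p = 0.0789) and Pex10 at 4.96 to 7.63 CPM (adjusted p = 0.183). Pex26, which anchors Pex6 to the membrane, was at 27.9 and 29.8 CPM with saline and 37.3 and 35.7 CPM with baicalein (adjusted p = 0.0558), and Pex6 overlapped between groups. For Pex7, Pex2, Pex10 and Pex26 the baicalein livers were the higher ones, although none passed. These 4 of the 13 tested import genes are close to the background. Of all tested genes 29.7% had both baicalein livers above both saline livers. Pex3 and Pex13 lay lower with baicalein without passing, and Pex5l, mainly a gene of brain, had at most 2 counts in any liver.

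Among the Pex11 genes, which elongate and divide peroxisomes, 1 of 3 fell (33.3%, where 7.9% of all tested genes did). Pex11a, the member that responds to PPARA, was at 71.7 and 74.5 CPM with saline and 40.8 and 43.2 CPM with baicalein (log2 change of -0.80 with SE 0.09, adjusted p = 6.46e-04), with both baicalein livers lower. Its call held with each liver left out. Pex11g was at 18.5 and 16.4 CPM with saline and 18.3 and 15.3 CPM with baicalein and overlapped between groups (adjusted p = 0.834). The difference between Pex11a and Pex11g was not tested.

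Among the genes for hydrogen peroxide and other oxygen products, Cat, Ephx2 and Prdx5 fell. Cat (ENSMUSG00000027187, chromosome 2), which splits hydrogen peroxide and whose promoter is printed above, was at 4439 and 4422 CPM with saline and 3282 and 2976 CPM with baicalein. Both baicalein livers lay below both saline livers (log2 change of -0.50 with SE 0.11, adjusted p = 0.0166), and its call did not survive the removal of saline 1 or saline 2 (highest adjusted p 0.295). Ephx2, the soluble epoxide hydrolase, was at 939 and 926 CPM with saline and 467 and 448 CPM with baicalein (log2 change of -1.03 with SE 0.10, adjusted p = 2.79e-04) and kept its call with any liver left out. Prdx5, a peroxiredoxin found in peroxisomes and mitochondria, was at 224 and 195 CPM with saline and 146 and 132 CPM with baicalein (log2 change of -0.59 with SE 0.11, adjusted p = 0.00789), a call that was lost without saline 1 (adjusted p = 0.0762).

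Prdx1, a mainly cytosolic peroxiredoxin, was at 1116 and 1140.2 CPM with saline and 1122 and 1027 CPM with baicalein and overlapped between groups. Sod1 and Sod2, the cytosolic and mitochondrial superoxide dismutases, had log2 fold changes of -0.14 and -0.21 and did not pass (adjusted p = 0.457 and 0.193), and Gstk1, a glutathione transferase, overlapped between groups. Xdh, which makes uric acid, was at 205 and 212 CPM with saline and 304 and 272 CPM with baicalein (log2 change of 0.46 with SE 0.10, adjusted p = 0.0178), the 1 member of this function that rose. Its call was lost without saline 1, saline 2 or baicalein 1 (highest adjusted p 0.187). Of the 8 members here 3 fell (37.5%, where 7.9% of all tested genes did). The 1 that rose is 12.5%, where 7.65% of all tested genes rose.

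The oxidases of hydroxy acids, amino acids and polyamines held the member with the highest ratio between groups. Hao2 (ENSMUSG00000027870, chromosome 3) encodes an oxidase of long-chain 2-hydroxy acids. It had 1 and 0 counts in the saline livers and 468 and 534 in the baicalein livers, or 32.2 and 26.6 CPM. The ratio was 890.1 with an exact 95% counting interval of 159 to 35191, which covers counting error only. Hao1, the related glycolate oxidase, was at 395 and 444 CPM with saline and 199 and 190.4 CPM with baicalein (log2 change of -1.11 with SE 0.11, adjusted p = 2.64e-04), lower in both baicalein livers. Hao1 kept its call with each liver left out. The 2 genes shared none of their 50-base words.

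Agxt, the aminotransferase that removes the glyoxylate that Hao1 makes, was at 339 and 324 CPM with saline and 501 and 409.5 CPM with baicalein (log2 change of 0.46 with SE 0.12, adjusted p = 0.0347). It thus lay on the other side of the comparison from Hao1. Paox, a polyamine oxidase, was at 40.4 and 40.9 CPM with saline and 63.7 and 50.9 CPM with baicalein (log2 change of 0.49 with SE 0.12, adjusted p = 0.0232), and its span overlaps Echs1 on the opposite strand by 678 bases in the table's positions. The calls of Agxt and Paox were lost without saline 1, saline 2 or baicalein 1 (highest adjusted p 0.336 and 0.165). Pipox, an oxidase of pipecolate and sarcosine, was at 223 and 240.5 CPM with saline and 294 and 251 CPM with baicalein and did not pass (adjusted p = 0.215), Ddo, D-aspartate oxidase, overlapped between groups, and Dao had 0 counts in the 4 livers. The 7 oxidase members summed to 1015 and 1068 CPM with saline and 1110 and 944 CPM with baicalein, so their total overlapped between groups.

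Ether lipid genes had no call. Gnpat, the acyltransferase of the first step, was at 66.4 and 61.7 CPM with saline and 55.9 and 61.3 CPM with baicalein (adjusted p = 0.428). Agps, the synthase that puts in the ether bond, was at 15.9 and 15.5 CPM with saline and 14.5 and 15.5 CPM with baicalein (adjusted p = 0.787). For both, the higher baicalein liver reached within 1 CPM of the lower saline liver. Far1, the reductase that supplies the fatty alcohol, was at 0.999 and 1.90 CPM with saline and 2.41 and 3.74 CPM with baicalein (adjusted p = 0.146), and Far2 had 4 to 9 counts per liver. Neither edgeR, DESeq2 nor limma-voom called any of the 3 tested members. Far1, 1 of the 3, was below an unadjusted p of 0.05 in edgeR, where at least 15.5% of all tested genes were.

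The group with the enzymes of isoprenoid precursors had no call either, by edgeR, DESeq2 or limma-voom. Of its 3 tested genes 1 was below an unadjusted p of 0.05 in edgeR, where at least 15.5% of all tested genes were. Mvk and Pmvk, mevalonate kinase and phosphomevalonate kinase, overlapped between groups, and Hmgcll1 had at most 6 counts. Among the reductases, Dhrs4, a carbonyl reductase, was at 142 and 145 CPM with saline and 103 and 91.3 CPM with baicalein (log2 change of -0.56 with SE 0.10, adjusted p = 0.00658), and lost its call without saline 2 (adjusted p = 0.0608). Idh1, the isocitrate dehydrogenase of cytosol and peroxisomes, was at 523 and 533 CPM with saline and 451 and 415 CPM with baicalein (adjusted p = 0.0951). Its mitochondrial relative Idh2 was at 119 and 96.1 CPM with saline and 142 and 159 CPM with baicalein (log2 change of 0.48 with SE 0.13, adjusted p = 0.0334), higher with baicalein, a call that was lost without saline 2, baicalein 1 or baicalein 2 (up to 0.301).

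The 2 acyl-CoA amino acid acyltransferases both rose, where 7.65% of all tested genes did. Acnat2, of the family that joins fatty acids to taurine, was at 5.82 and 6.78 CPM with saline and 72.1 and 73.7 CPM with baicalein (log2 change of 3.53 with SE 0.11, adjusted p = 4.04e-07), above the saline livers in both baicalein livers and with its call kept whichever liver was left out. Acnat1 was at 38.8 and 40.2 CPM with saline and 58.0 and 50.5 CPM with baicalein (log2 change of 0.46 with SE 0.10, adjusted p = 0.0165), a call that was lost without saline 1, saline 2 or baicalein 1 (highest adjusted p 0.116). They share 522 of their 50-base words, 28.0% of those of Acnat1 and 30.2% of those of Acnat2, so reads of one may have been counted for the other, and the rise of Acnat1 is uncertain.

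Levels per length, by the deposited FPKM, showed which transcripts dominated the organelle's set. Cat had the highest mean in both groups, 1648 with saline and 1228 with baicalein. Scp2 was the second with saline at 1209 and the third with baicalein at 486, and Phyh went from the third at 1019 to the second at 641. Agxt moved from place 9 to place 6 and Hao1 from place 11 to place 19.

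PPARA and its other known targets were read next, from a list of regulators and of targets that do not carry the pathway name. Ppara itself was at 129.7 and 164 CPM with saline and 154 and 137 CPM with baicalein and overlapped between groups (adjusted p = 0.961), and none of the 7 regulators passed in edgeR, while DESeq2 called Rxra and limma-voom Ppargc1a higher. The partner Rxra was at 438 and 509 CPM with saline and 663 and 579 CPM with baicalein (adjusted p = 0.0608), higher in both baicalein livers without passing. In edgeR 2 of the 7, Rxra and Ppargc1a, were below an unadjusted p of 0.05, where at least 15.5% of all tested genes were. Of 36 targets 17 fell (47.2%, where 7.9% of all genes fell) and 16 did not pass, with a median log2 fold change of -0.47. The 3 that rose are 8.33%, close to the 7.65% of all genes that rose.

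Several of these targets handle the fatty acids that peroxisomes and mitochondria share. Angptl4, a secreted inhibitor of lipoprotein lipase, was at 84.3 and 94.8 CPM with saline and 29.6 and 31.1 CPM with baicalein (log2 change of -1.56 with SE 0.10, adjusted p = 2.60e-05). Plin2, a coat protein of lipid droplets, had a log2 fold change of -1.53 (SE 0.11), Retsat, retinol saturase, of -1.37 (SE 0.11) and Gpd1, glycerol-3-phosphate dehydrogenase, of -1.14 (SE 0.10). Fabp1, the main fatty acid binding protein of liver, was at 2550.3 and 2530.2 CPM with saline and 1283 and 1173 CPM with baicalein (log2 change of -1.05 with SE 0.11, adjusted p = 3.83e-04). Both baicalein livers lay below both saline livers for these genes. Fabp2 (-0.96, SE 0.11) and Cyp4a32 (-1.59, SE 0.17), a fatty acid hydroxylase, fell too, and the value of Cyp4a32 is uncertain because its family holds near-identical copies. Its relative Cyp4a14, named after its values were seen, was at 127 and 162 CPM with saline and 289 and 386 CPM with baicalein and rose (log2 change of 1.22 with SE 0.19, adjusted p = 0.0144), and Cyp4a10 did not pass (adjusted p = 0.772). Txnip, a thioredoxin-binding protein, rose (log2 fold change 0.79, SE 0.10). The targets named here as having fallen or risen kept their calls with each liver left out. Apart from Cyp4a14 they were picked for the smallest p in the same data, which favours this. Others of the called targets, not named here, lost the call in at least 1 such fit. Without saline 2, 13 genes of this list of 43 were called, against 20 with the 4 livers.

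**Figure D4:**
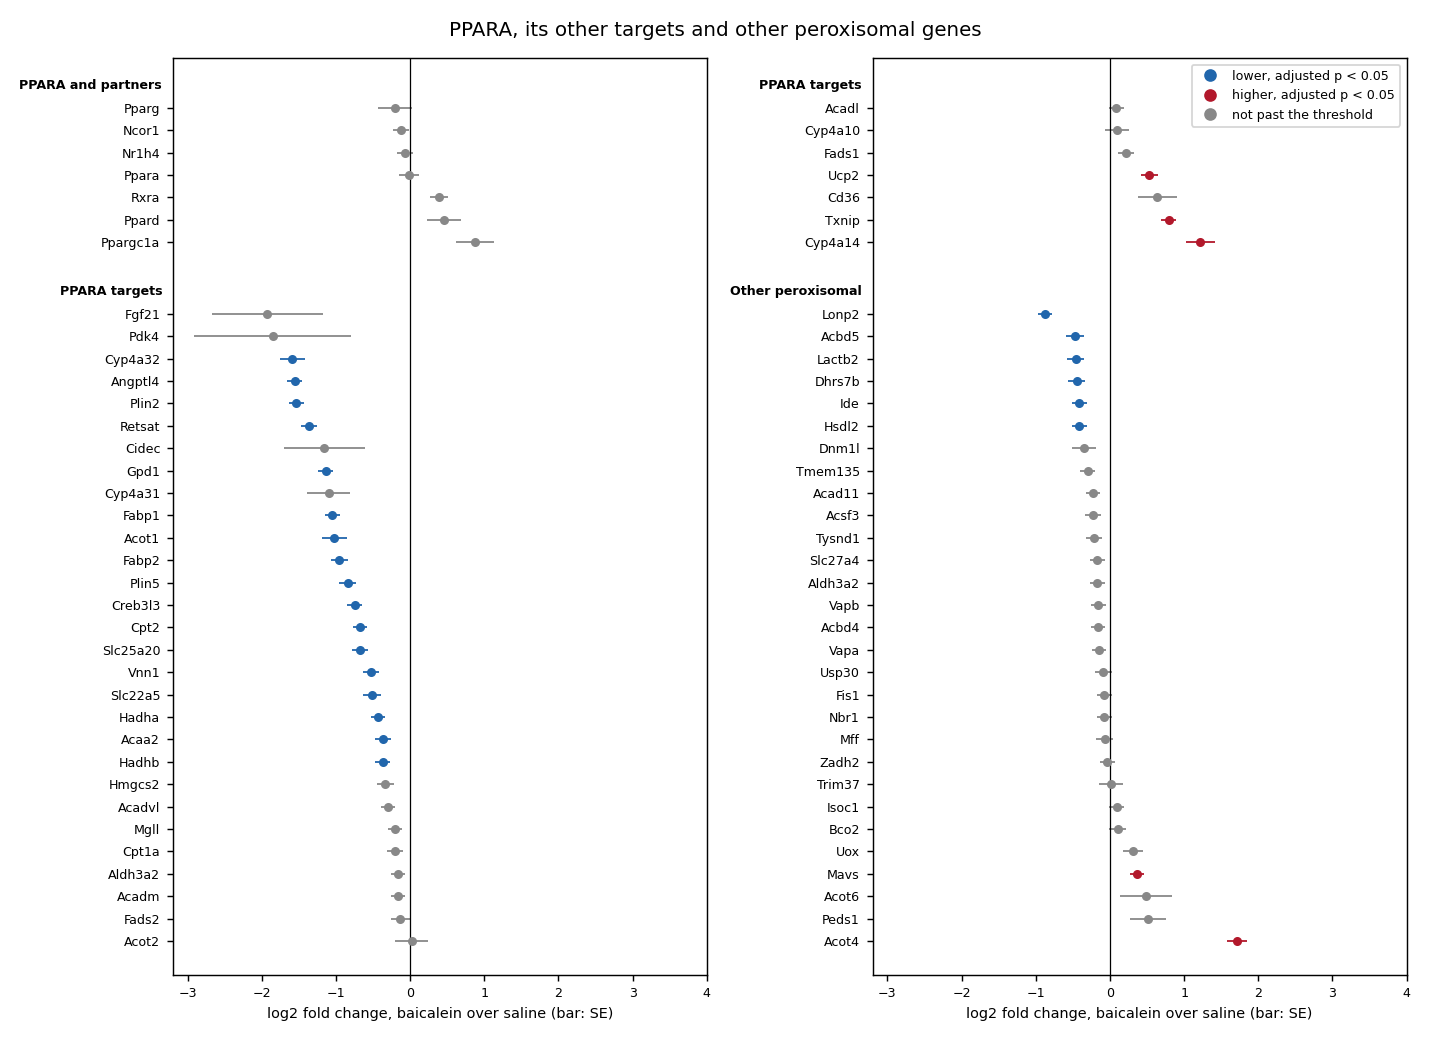
Log2 fold change (baicalein over saline) with its standard error for PPARA and partners, other PPARA targets and other peroxisomal genes, coloured by call. The 7 regulators are grey, 17 targets are blue and left of 0, and Acot4 lies farthest right among the other peroxisomal genes; Acot3 is left out because it lies beyond the axis.

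Peroxisomal genes that do not carry the pathway name gave 9 calls among 30 tested, 6 lower (20%, where 7.9% of all genes were) and 3 higher (10%, where 7.65% were, so close to the background). Lonp2, the protease of the peroxisomal matrix, was at 548 and 546 CPM with saline and 295 and 303 CPM with baicalein (log2 change of -0.87 with SE 0.10, adjusted p = 6.19e-04). Hsdl2, Dhrs7b, Lactb2, Ide and Acbd5 fell with log2 fold changes from -0.47 to -0.41; of these Acbd5 tethers peroxisomes to the endoplasmic reticulum and Dhrs7b acts in ether lipid synthesis. Acot3, a peroxisomal acyl-CoA thioesterase, had 5 and 5 counts with saline and 587 and 765 with baicalein. It was at 0.294 and 0.365 CPM with saline and 40.4 and 38.2 CPM with baicalein, and it too passed the filter on low counts only through the baicalein livers. Its neighbour in the family, Acot4, was at 21.8 and 27.6 CPM with saline and 84.9 and 76.9 CPM with baicalein (log2 change of 1.71 with SE 0.13, adjusted p = 1.29e-04), and in both genes the baicalein livers were higher. Mavs, which falls outside the rule for naming genes and is named because it completes the 3, rose by 0.36 on the log2 scale (SE 0.09). Uox, urate oxidase, which forms the core of mouse liver peroxisomes, was at 1513 and 1819 CPM with saline and 2218 and 1909 CPM with baicalein and did not pass (adjusted p = 0.156).

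Acot4 and Lonp2 kept their calls with each liver left out. Hsdl2 lost it without saline 1, saline 2 or baicalein 1, Lactb2 without saline 1, saline 2 or baicalein 2, Acbd5 without saline 2, baicalein 1 or baicalein 2, and Dhrs7b, Ide and Mavs whichever liver was left out (highest adjusted p 0.315). Acot3 and Acot4 share 121 of their 50-base words, 3.49% of those of Acot3. The list as a whole gave 4, 3, 4 and 4 calls without saline 1, saline 2, baicalein 1 and baicalein 2.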

How the data were processed

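RNA sequencing of 4 mouse livers, 2 per group, was read from 1 deposited table. The authors deposited read counts and FPKM per gene, per the file headers; the counts were tested, and FPKM served only to order members by level per length. The submitters' processing notes name mm10, with the aligner, counter and strand setting not given in the sources used. Start and end in the table equal those of GENCODE M21 (mm10) for 3 of the 85 members, so gene positions are given by chromosome alone.

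Genes were filtered with filterByExpr, scaled by TMM (factors 0.963 to 1.07) and tested in edgeR 4.0.16 (robust quasi-likelihood, R 4.3.3), two-sided, with Benjamini-Hochberg adjustment over 12657 genes and a threshold of 0.05. The scripts were tested on simulated data. A standard error is the log2 fold change divided by the root of its F. A level of 3 counts is 0.150 to 0.219 CPM, and counting intervals and such floors cover counting error only. Livers of 1 group differed by more than sampling noise, with a chi-square per degree of freedom of 23.4 and 18.7.

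The members and lists were chosen with earlier results of these data known, and no test of a list was made. Genes named are members past the threshold, the 5 pathway markers and the 2 most abundant members of each function, and in other lists the 8 with the smallest p and Ppara; other members are named to account for each function. Alternatives were median-of-ratios scaling, DESeq2 1.42.0, limma-voom 3.58.1, other filters and thresholds, a replicate block and each liver left out. A few members are not reported here by name, nor drawn singly; counts and sums include them.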

Additional observations from a re-analysis of the deposited data

How the results depend on the processing

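Each group had 2 livers. Leaving out 1 liver gave 1056 to 1328 genes called over all, 12 to 27 peroxisome genes lower, 3 to 7 higher, 3 to 4 other peroxisomal genes and 13 to 19 genes of the PPARA list; of the 42 called peroxisome genes, 13 (Hao2, which passed the filter only through the baicalein livers, among them) kept their call in each of these 4 fits and 29 lost it in at least 1. The lone liver of a group is then assumed to vary like the others. The lower and higher members of these fits were not set beside the share over all genes, and their numbers are not read as exceeding it. With the stricter adjusted p below 0.01, 19 peroxisome genes were lower and 3 higher, a cut at which the share over all genes was not taken. With a fold of at least 2 there were 4 and 4, where 1.93% of all tested genes were lower and 3.01% higher. Median-of-ratios scaling, limma-voom, DESeq2 and both filters gave 33 to 34 lower and 8 to 9 higher, and DESeq2 shared 30 of the 33 lower genes. In these fits 40.5% to 42.5% of the tested members were lower, where 6.79% to 8.2% of all tested genes were. The number of higher members in these fits is not read as exceeding the share over all genes. Direction changed in some fit for 9 peroxisome genes, none of them called; among the genes of the naming rule these were Pex11g (log2 fold change -0.06 with the 4 livers, 0.02 without saline 1, 0.069 without baicalein 2 and -0.21 without baicalein 1) and Pmvk (-0.13, 0.11 without baicalein 2 and -0.42 without baicalein 1), and the cause was not tested. Low counts limit Hao2 and Eci3 in the saline livers.

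The livers share only a replicate number: deviations of same-numbered livers from their group means correlated at -0.74 over 12657 genes and at 0.099 over the 80 tested peroxisome genes. The muscle markers, high in saline 1 and baicalein 2, run with the former, and their part in it was not tested. With the replicate number as a block, 1132 genes were called, among them 3 other peroxisomal genes and 15 of the PPARA list. Of the 80 tested peroxisome genes 20 were lower (25%, where 4.75% of all genes were). Of the same 80, 3 were higher, where 531 of all 12657 genes were, so close to the background. The crossed pairing, chosen after seeing the data, gave 3498 genes. Of the 80, 38 were then lower (47.5%, where 13.3% of all genes were). A further 13 of the 80 were higher, where 1809 of all 12657 genes were, again close to the background.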
